A study of Homo sapiens and Mus musculus with 16 samples.

Results

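Integrin and laminin subunit genes were followed in 2 tumour cell lines with and without PD-L1. The members were rows of the expression tables named as an integrin alpha chain, an integrin beta chain 1 to 8, or a laminin alpha, beta or gamma chain 1 to 5. This rule used the gene names and no measured value. They are 37 of 58713 rows in MDA-MB-231 (18 integrin alpha, 8 integrin beta, and 5, 4 and 2 laminin alpha, beta and gamma genes). They are 37 of 53796 rows in CT26 (19, 8, 5, 3 and 2), where Itgam has 2 rows with different gene identifiers, 1 of them listed at 0 in every library.

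MDA-MB-231 cells come from a human breast cancer of the triple-negative kind, and CT26 cells from a mouse colon carcinoma. Total RNA of each line was sequenced from 4 libraries of wild type cells and 4 libraries of cells in which PD-L1 had been knocked out by CRISPR delivered with a lentivirus. MDA-MB-231 was grown in DMEM and CT26 in RPMI 1640, both with serum and antibiotics, and the groups of a line carried no other named treatment. The sources used here do not say whether PD-L1 was lost in a pool of cells or in 1 clone, which guide was used, whether the wild type cells received a control virus, or whether the 4 libraries were separate cultures. Each p-value therefore rests on a spread between libraries that may be technical, and a property of 1 clone cannot be told apart from the loss of PD-L1.

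Integrins are receptors of 1 alpha and 1 beta chain that span the cell membrane and link the matrix outside to the actin or keratin network inside. Laminins are cross-shaped trimers of 1 alpha, 1 beta and 1 gamma chain, and they form the sheet of the basement membrane on which epithelial cells sit. The ITGA3 chain joined to ITGB1, and the ITGA6 chain joined to ITGB1 or ITGB4, bind laminins. ITGA1, ITGA2, ITGA10 and ITGA11 with ITGB1 bind collagens. ITGA5 with ITGB1 is the main fibronectin receptor, ITGAV pairs with several beta chains to bind vitronectin, fibronectin and latent TGF-beta, and the partners of ITGB2 and ITGB7 are known from blood cells. In carcinoma, these chains are known for their part in adhesion, migration and invasion.

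Values are in FPKM, fragments scaled to transcript length and to the size of the library, by a rule the sources used here do not give. Levels of different genes are therefore compared per length and only within a line. A gene was tested where at least 4 of the 8 libraries of its line reached 1 FPKM. Fold changes are differences of mean log2(FPKM + 1), knockout minus wild type, from limma, and understate the change of low genes. A gene is called changed at a Benjamini-Hochberg adjusted p below 0.05 over all genes tested, and all adjusted p-values below are of this kind.

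With wild type replicate 1 of each line set to 1, the relative depth of the MDA-MB-231 libraries was 0.941 to 1.21 for wild type and 0.509 to 0.779 for knockout. For CT26 it was 0.799 to 1.14 and 0.926 to 2.49. The targeted transcript Cd274 averaged 1.41 ± 0.127 FPKM in the wild type of CT26 and 0.526 ± 0.0552 in the knockout (SD, n = 4 per group), with no overlap (exact permutation p = 0.0286, two-sided, the smallest this design allows). It passed the filter only through the wild type, so its limma call is no support. CD274 was 12.2 ± 0.670 FPKM in the wild type and 10.6 ± 1.91 in the knockout of MDA-MB-231 (SD, n = 4 per group), with overlapping groups and a limma adjusted p of 0.166 (exact permutation p = 0.229). Its log2 fold change was -0.20, and -0.40 after upper-quartile scaling (limma adjusted p = 0.0157). An edit that leaves the transcript in place would not show in this value, so it checks the MDA-MB-231 labels only weakly. Of the markers of the labelled lines, ESR1 and PGR were at or near 0 in MDA-MB-231. All 6 that were tested differed between the genotypes, where 68.2% of all genes tested were called. VIM went from 1113 to 2545 FPKM, CD44 from 1093 to 321 and KRT8 from 399 to 215. KRT18 went from 377 to 307, EPCAM from 27.6 to 12.0 and ERBB2 from 24.6 to 17.8. Their part in the integrin and laminin differences was not tested. In CT26, 6 of these markers were tested, and 3 were higher and 2 lower in the knockout. That is 83.3% called, against 55.8% of all genes tested. Vim went from 3802 to 4531 FPKM, Cd44 from 93.2 to 102 and Esr1 from 3.54 to 4.25. Cdh2 went from 29.6 to 18.1 FPKM and Erbb2 from 8.80 to 7.21. The epithelial keratin Krt18 (33.7 and 31.6 FPKM) was expressed and not called. The part of these markers in the Itg and Lam differences was not tested. The epithelial and intestinal markers Epcam and Vil1 were at or near 0, Krt8 averaged 0.139 and 0.145 FPKM, and the intestinal Cdh17 and Cdx2 were low, at 0.474 and 0.0415 FPKM in the wild type and 0.810 and 0.930 in the knockout. Of the leukocyte and platelet markers, 14 of 18 in MDA-MB-231 and 15 of 17 in CT26 stayed below 1 FPKM in every library.

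Most integrin and laminin genes that were expressed in MDA-MB-231 were lower in the knockout. Of the 18 members tested, 14 fell, 3 rose and 1 did not pass the test. Falls included ITGB4, ITGA5 and ITGA2, and the rises were in ITGB2, ITGAE and ITGA10, which was tested only because of its knockout libraries. Falls made up 14 of 18 members, whereas 25.7% of the 14450 genes tested fell and 42.6% rose, 68.2% in all. The knockout libraries lay wholly below the wild type for 13 members and wholly above it for 3, against 23.6% and 39.1% of all genes tested. The median log2 fold change of the members was -0.62 and that of all genes tested 0.18. After upper-quartile scaling, which put the median of all genes at -0.01 and turned 6149 rises and 3711 falls into 4736 and 4851, 15 members fell and 2 rose. Centred on the genes within 10 Mb either side, the split of all genes was 4563 to 4520, and that of the members was again 2 to 15.

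**Figure D1:**
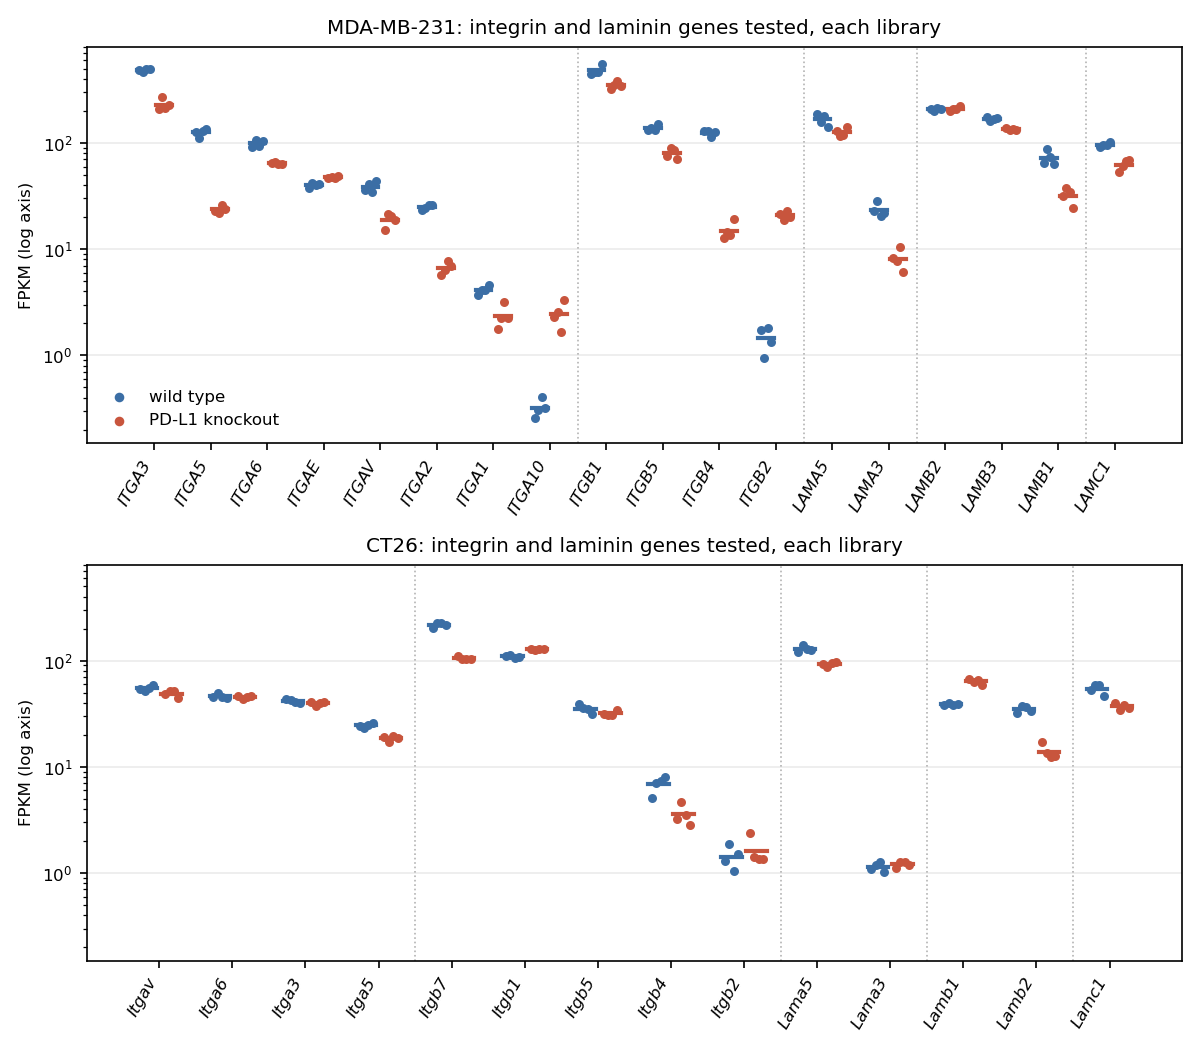
Level of each tested integrin and laminin gene in each library, in FPKM on a log axis, for MDA-MB-231 (top) and CT26 (bottom). Each point is 1 library, short lines are group means of 4 libraries, and dotted lines separate integrin alpha, integrin beta and laminin alpha, beta and gamma genes. In MDA-MB-231 the knockout points of ITGB4 (12.6 to 19.1 FPKM) lie far below the wild type points, and those of ITGB2 (18.7 to 23.0) far above.

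The laminin-binding receptor chains fell to different degrees. ITGB4 (ENSG00000132470, hg38 chromosome 17, 75721328 to 75757818), which anchors hemidesmosomes, was at 130, 129, 113 and 126 FPKM in the 4 wild type libraries and at 12.6, 14.4, 13.6 and 19.1 in the knockout. All knockout libraries were far below all wild type libraries, with a mean of 12.0% of the wild type mean. The log2 fold change of ITGB4 was -2.99 (SE 0.12, limma adjusted p = 8.11e-08). ITGA6, its only known alpha partner, read 91.1, 107, 93.0 and 104 FPKM in the wild type and 64.8, 65.9, 63.2 and 63.6 in the knockout. Its groups did not overlap either, but 65.1% of the level remained (log2 fold change -0.61, SE 0.060, limma adjusted p = 2.34e-05).

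ITGA3 (hg38 chromosome 17, 50055968 to 50090481) was the alpha chain with the highest level. It was at 481, 461, 496 and 492 FPKM in the wild type and at 210, 273, 211 and 225 in the knockout. The 2 groups were clearly apart, with a log2 fold change of -1.07 (SE 0.082, limma adjusted p = 4.26e-06). ITGB1, the beta chain shared by most alpha chains, was the highest beta chain at 450, 461, 470 and 549 FPKM in the wild type and 319, 353, 380 and 346 in the knockout. All knockout libraries were below all wild type libraries, with a log2 fold change of -0.46 (SE 0.075, limma adjusted p = 5.29e-04). The 95% confidence interval of this fall, -0.63 to -0.29, lay nearer to 0 than those of its alpha partners ITGA3 (-1.26 to -0.89), ITGAV (-1.27 to -0.74), ITGA2 (-1.99 to -1.55) and ITGA5 (-2.53 to -2.19). It overlapped those of the partners ITGA6 (-0.75 to -0.47) and ITGA1 (-0.92 to -0.31), and the partner ITGA10 was higher. No test of a difference between chains was made. ITGA7, a laminin-binding chain of muscle, was at or below 0.965 FPKM in all libraries and was not tested.

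Among the collagen-binding alpha chains, ITGA2 and ITGA1 fell and ITGA10 was higher. ITGA2 (hg38 chromosome 5, 52989326 to 53094779), the collagen receptor chain of epithelial cells and platelets, was at 23.3, 24.4, 26.2 and 26.1 FPKM in the wild type and at 5.67, 6.31, 7.78 and 6.88 in the knockout. Its log2 fold change was -1.77 (SE 0.095, limma adjusted p = 4.90e-07), and its groups did not overlap. ITGA1, its neighbour on the same chromosome, went from 4.12 ± 0.339 to 2.37 ± 0.595 FPKM (limma adjusted p = 0.00285, and a q-value of 0.248 in the authors' deposited table). ITGA1 shares 475 exon bases with PELO on the same strand, a gene at 21.8 FPKM on average, so reads in that stretch cannot be assigned from these values. ITGA10 went from 0.321 ± 0.0609 to 2.47 ± 0.687 FPKM, with a log2 fold change of 1.37 (SE 0.15). It passed the filter only through the knockout libraries, so it had to be higher there and its call is no support. ITGA11 stayed at or below 0.352 FPKM.

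The fibronectin and vitronectin receptor chains fell. ITGA5 (ENSG00000161638, hg38 chromosome 12, 54395261 to 54419460) was at 127, 112, 131 and 134 FPKM in the wild type and at 23.0, 22.0, 25.9 and 24.1 in the knockout. The libraries of a group were close to each other and 18.8% of the wild type mean remained, with a log2 fold change of -2.36 (SE 0.073, limma adjusted p = 2.15e-08). ITGAV was at 35.8, 40.7, 34.7 and 43.9 FPKM in the wild type and at 15.2, 21.3, 20.3 and 18.8 in the knockout. All of its knockout libraries were lower, with a log2 fold change of -1.005 (SE 0.12, limma adjusted p = 6.35e-05). ITGB5, which pairs with ITGAV, was at 132, 140, 133 and 152 FPKM in the wild type and at 74.9, 89.6, 85.1 and 69.99 in the knockout. It too did not overlap between groups, with a log2 fold change of -0.80 (SE 0.085, limma adjusted p = 3.59e-05). The other partners of ITGAV were low: ITGB3 averaged 0.471 and 0.736 FPKM, ITGB6 0.385 and 0, and ITGB8 0.158 and 0.0464, in wild type and knockout. ITGA8 was listed at 0 in every library, and ITGA2B, the platelet chain, averaged 0.464 and 0.166 FPKM.

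The chains known from leukocytes that rose, ITGB2 and ITGAE, had no known partner chain above the filter. Whether such pairs moved together was therefore not tested. ITGB2 (ENSG00000160255, hg38 chromosome 21, 44885953 to 44931989), the beta chain of the leukocyte integrins, was at 1.72, 0.953, 1.80 and 1.35 FPKM in the wild type and at 21.4, 18.7, 23.0 and 20.1 in the knockout. The lowest knockout library was over 10 times the highest wild type library, and the log2 fold change was 3.16 (SE 0.13, limma adjusted p = 1.07e-07). All alpha chains known to pair with ITGB2 were far lower per length in these same libraries. ITGAL was 0 in every wild type library and 0 to 0.277 FPKM in the knockout. ITGAM was 0.0155 to 0.345 FPKM in the wild type and 0 in every knockout library, ITGAX was at most 0.201 and ITGAD at most 0.0423 FPKM in any library.

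The summed level of the leukocyte and platelet markers was 56.0 to 61.8 FPKM in wild type and 53.3 to 58.8 in knockout libraries. LAPTM5 gave most of it, at 45.2 and 44.8 FPKM on average. CORO1A rose with ITGB2, from 4.62 to 9.02 FPKM (limma adjusted p = 6.49e-04), while CSF1R went from 4.32 to 0.407 and CD14 from 2.69 to 0.719. CD14 passed the filter only through the wild type, so it had to be lower in the knockout. The part of these markers in the ITGB2 difference was not tested. No other of the 18 markers reached 1 FPKM in any library, and TYROBP, NKG7, MS4A1, PPBP, GP9 and CD3E were at 0 in all. The exons of ITGB2 share 303 bases with those of its antisense gene ITGB2-AS1, which averaged 1.94 FPKM, and no source used here says whether strand was used in counting.

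ITGAE, the alpha partner of ITGB7 in lymphocytes of epithelia, was at 37.5 to 41.8 FPKM in wild type and 46.9 to 48.8 in knockout libraries. It rose by 0.24 on the log2 scale (SE 0.049, limma adjusted p = 0.00190), but by 0.03 after upper-quartile scaling (limma adjusted p = 0.538) and by 0.06 relative to its chromosomal neighbours (limma adjusted p = 0.280). Its only known partner ITGB7, which shares 1886 exon bases with ZNF740 on the opposite strand, averaged 0.510 FPKM in the wild type and 0.134 in the knockout. ITGAE shares 427 exon bases with HASPIN, a gene on the opposite strand at 9.58 FPKM on average. ITGA4 and ITGA9, the remaining chains of this kind, were at most 0.0291 and 0.133 FPKM.

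The laminin chains LAMA3 and LAMB3, known from epithelial basement membranes, both fell in MDA-MB-231. LAMA3 was at 22.7, 28.5, 20.6 and 21.8 FPKM in the wild type and at 8.30, 7.75, 10.5 and 6.04 in the knockout. Its groups did not overlap, with a log2 fold change of -1.43 (SE 0.16, limma adjusted p = 4.57e-05). LAMB3 moved less, from 169 ± 4.96 to 135 ± 3.07 FPKM (log2 fold change -0.33, SE 0.038, limma adjusted p = 6.24e-05).

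LAMC1 (hg38 chromosome 1, 183023460 to 183145592), a widely expressed gamma chain, was at 91.9, 95.5, 94.8 and 101 FPKM in the wild type and at 53.0, 60.4, 67.0 and 69.0 in the knockout. The groups stood apart, with a log2 fold change of -0.62 (SE 0.082, limma adjusted p = 1.54e-04). LAMB1 was at 64.9, 87.8, 74.4 and 62.7 FPKM in the wild type and at 31.8, 37.4, 34.2 and 24.4 in the knockout. It fell by 1.16 on the log2 scale (SE 0.15, limma adjusted p = 1.10e-04), with no overlap. Its exons share 70 bases with DLD, at 91.1 FPKM on average, on the opposite strand.

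LAMA5, the broadly expressed alpha chain of adult basement membranes, was at 186, 157, 181 and 142 FPKM in the wild type and at 130, 117, 120 and 142 in the knockout. The groups met at 142, and the fall of 0.38 on the log2 scale (SE 0.099, limma adjusted p = 0.00769) had a q-value of 0.16 in the authors' deposited table. Its exons share 244 bases with ADRM1, on the opposite strand, at 239 FPKM on average. LAMB2 was at 208, 202, 213 and 210 FPKM in the wild type and at 200, 207, 207 and 223 in the knockout. Its difference of 0.01 on the log2 scale did not pass the test (95% confidence interval -0.09 to 0.10, limma adjusted p = 0.924), but it became -0.21 after upper-quartile scaling (limma adjusted p = 0.00316) and -0.42 relative to its neighbours, whose median was 0.43. LAMA1, LAMA2 and LAMA4, chains of embryonic, muscle and vascular basement membranes, were below the filter and not tested here. LAMA1 averaged 0.259 and 1.20 FPKM, LAMA2 0.341 and 1.31, and LAMA4 0.549 and 2.89, in wild type and knockout. The groups of LAMA1 and LAMA2 did not overlap, and those of LAMA4 did (0.187 to 0.991 against 0.968 to 4.70). In the authors' deposited table, where they were also higher in the knockout, LAMA1, LAMA2 and LAMA4 had q-values of 1.5e-04, 0.0194 and 1.5e-04. All of them reached 1 FPKM in knockout libraries only. LAMB4 and LAMC3 were at most 0.246 and 0.0148 FPKM.

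Because subunits moved by unequal amounts, the make-up of the classes differed between the genotypes, as the plot of subunit shares shows. No test was made of these shares. The summed FPKM of the alpha integrins was 817 ± 25.1 in the wild type and 397 ± 31.4 in the knockout (SD, n = 4), and that of the beta integrins 749 ± 54.1 and 466 ± 31.2. ITGB1 made up 64.4% ± 1.70 of the beta chain FPKM in the wild type and 75.0% ± 0.855 in the knockout. ITGB4 went from 16.6% to 3.22%, and ITGB2 from 0.196% to 4.47%. ITGA3 held a like share of the alpha chains in both groups, 59.0% and 57.7%, while ITGA5 went from 15.4% to 6.02% and ITGAE from 4.91% to 12.1%. LAMA5 made up 87.0% and 90.4% of the laminin alpha chains. Among the laminin beta chains, LAMB2 held 46.3% and 55.6%, LAMB3 37.6% and 35.8%, and LAMB1 16.1% and 8.50%.

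**Figure D2:**
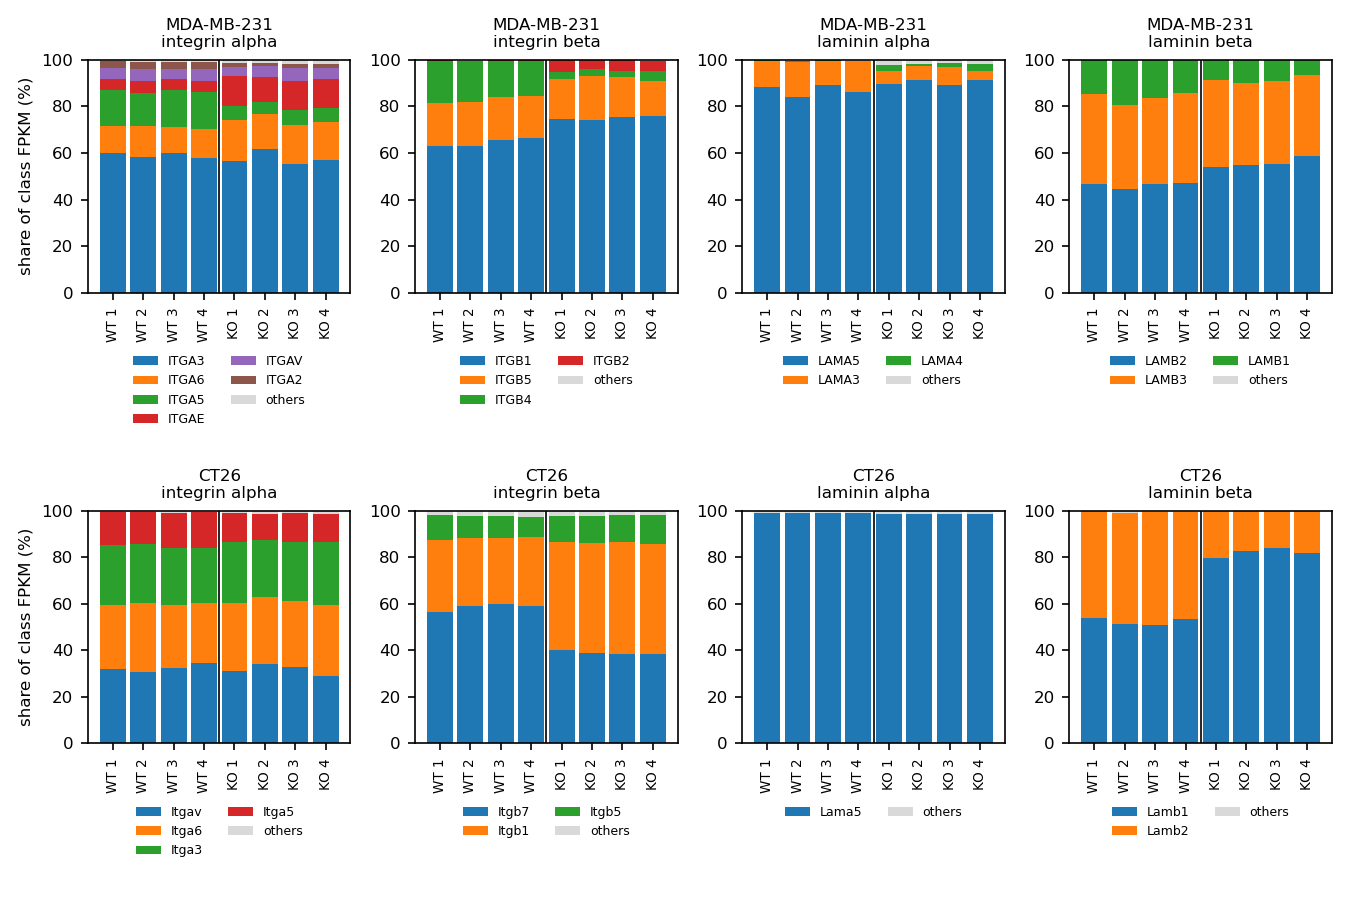
Share of each integrin alpha, integrin beta, laminin alpha and laminin beta subunit in the summed FPKM of its class, in percent, for every library of MDA-MB-231 (top row) and CT26 (bottom row). Each bar is 1 library, the vertical line separates wild type (WT) from PD-L1 knockout (KO), and grey stands for the remaining genes of the class. ITGB4 went from 16.6% to 3.22% of the beta integrins of MDA-MB-231, and Lamb1 from 52.4% to 82.0% of the laminin beta chains of CT26.

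The sequence just upstream of the annotated start was read for the members in RefSeq (GRCh38.p14). Promoter windows were found for 26 of the 37 human members, in 33 entries, and the 250 bases upstream of each start were searched on both strands for 5 motifs. ITGB4, ITGB2 and ITGA3 were among the members without an entry, and some of the 33 entries belong to members that were not tested. Windows are printed for ITGA2, LAMC1 and LAMB3, which fell by a large, a middling and a small amount in MDA-MB-231. The ITGA2 window holds 26 exon bases, the LAMB3 window 20 and the LAMC1 window none. The printed LAMB3 window lies inside the GENCODE span of the gene (209614870 to 209652466). Capitals mark the letters GGGCGG, the core of the SP1 site, or its reverse complement, and TGANTCA, the AP-1 site. The windows are chr5:52989102-52989351 on the plus strand (ITGA2), chr1:183023170-183023419 on the plus strand (LAMC1) and chr1:209651375-209651624 on the minus strand (LAMB3, 1 of its 3 entries), each written 5′ to 3′.
ITGA2: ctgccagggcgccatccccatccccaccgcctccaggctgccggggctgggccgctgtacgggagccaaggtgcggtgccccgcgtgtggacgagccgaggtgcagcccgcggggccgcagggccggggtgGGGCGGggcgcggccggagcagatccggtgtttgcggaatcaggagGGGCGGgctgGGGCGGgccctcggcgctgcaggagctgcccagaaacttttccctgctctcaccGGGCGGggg
LAMC1: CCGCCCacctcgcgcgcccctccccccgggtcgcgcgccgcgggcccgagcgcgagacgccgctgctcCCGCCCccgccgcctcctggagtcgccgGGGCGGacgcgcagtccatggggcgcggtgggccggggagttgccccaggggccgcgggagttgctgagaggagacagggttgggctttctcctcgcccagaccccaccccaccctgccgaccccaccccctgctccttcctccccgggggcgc
LAMB3: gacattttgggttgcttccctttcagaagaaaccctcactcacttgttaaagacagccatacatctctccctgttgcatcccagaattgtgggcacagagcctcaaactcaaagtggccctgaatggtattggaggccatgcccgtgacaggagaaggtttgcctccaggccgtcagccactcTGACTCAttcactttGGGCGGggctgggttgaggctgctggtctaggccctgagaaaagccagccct
The ITGA2 window held 4 SP1 matches and no AP-1 match, and the LAMC1 window 3 SP1 matches. The LAMB3 window held 1 AP-1 match starting 67 bases upstream of the annotated start, beside 1 SP1 match. An AP-1 match was in 2 of the 33 entries, this one and LAMA3 with 2 matches, and in 6.57% of all 35116 promoters in the table. SP1 matches were in 17 of 33 entries and in 42.6% of all. CACCTG, the E-box bound by ZEB and SNAI factors, was in 8 of 33 and in 17.5% of all, and GGAATG, the TEAD site, in 4 of 33 and in 11.9%. The NF-kappaB consensus was in 8 of 33 and in 9.96% of all, and none of the 3 printed windows holds it. The other LAMB3 entries, which are not printed, each hold 3 NF-kappaB matches and no AP-1 match. Their windows overlap each other, so they share bases. These matches describe letters in a window and were not related to the fold changes by any test.

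Partner genes of the same adhesion structures were read from lists of fixed members. Of the 9 hemidesmosome and tetraspanin partners of laminin-binding integrins, 8 fell in MDA-MB-231 and 1 rose, with a median of -0.65, against 25.7% lower and 42.6% higher among all genes tested. CD82, a tetraspanin known to restrain integrin-driven migration, went from 290 ± 8.60 to 38.3 ± 3.26 FPKM (log2 fold change -2.89, limma adjusted p = 2.81e-09). CD151, the tetraspanin bound to ITGA3 and ITGA6, went from 369 ± 14.0 to 197 ± 6.43 FPKM, and COL17A1, the transmembrane collagen of hemidesmosomes, from 17.2 ± 1.77 to 2.999 ± 0.625. TSPAN4 and CD63 fell by 0.54 and 0.65 on the log2 scale, and CD9 was the member that rose (0.37).

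Of 33 adaptors and focal adhesion proteins tested, 16 rose, 9 fell and 8 did not pass the test, shares near the 42.6% and 25.7% of all genes tested, and their median log2 fold change was 0.34. TNS1 and PTK2B of this list passed the filter only through the group where they are high, so their calls were fixed by it. FERMT3, the kindlin of blood cells that activates integrins, went from 2.31 ± 0.297 to 74.5 ± 7.43 FPKM (log2 fold change 4.51, limma adjusted p = 2.43e-09). Rises were also called in the actin cross-linker ACTN1 (168 to 390 FPKM), the actin regulator VASP (67.6 to 165) and FBLIM1 (5.56 to 16.5). The tensin TNS1 averaged 0.189 FPKM in the wild type and 8.22 in the knockout. TNS4, a tensin of epithelial cells, fell from 31.4 to 6.68 FPKM.

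The basement membrane partners and non-integrin laminin receptors were split, with 6 rises and 8 falls among 16 tested (median -0.19), against 42.6% and 25.7% of all genes tested. The type IV collagen chain COL4A5 went from 25.5 ± 1.98 to 0.0447 ± 0.0717 FPKM and its neighbour COL4A6 from 2.11 to 0.0027, and both passed the filter only through the wild type. The proteoglycan AGRN, which binds laminins, went from 230 ± 17.0 to 40.9 ± 4.31 FPKM, COL18A1 from 49.7 to 8.04 and the co-receptor SDC4 from 116 to 55.6. RPSA, a ribosomal protein that has also been described as a laminin receptor, rose from 461 ± 32.7 to 969 ± 46.0 FPKM. Of 19 other ligands of integrins tested, 13 fell, 2 rose and 4 did not pass the test (median -0.78), against the same shares of all genes. Of these calls, the fall of COL1A2 and the rise of SPP1 came from genes that passed the filter only through the higher group. TGFBI went from 196 ± 9.97 to 17.8 ± 2.22 FPKM, THBS1 from 403 to 82.7, L1CAM from 35.7 to 5.24, ADAM9 from 98.5 to 45.2 and COL1A1 from 9.81 to 3.29. ICAM1, the ligand of ITGB2 integrins, fell from 54.7 ± 5.12 to 3.35 ± 1.25 FPKM in the libraries where ITGB2 rose.

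**Figure D3:**
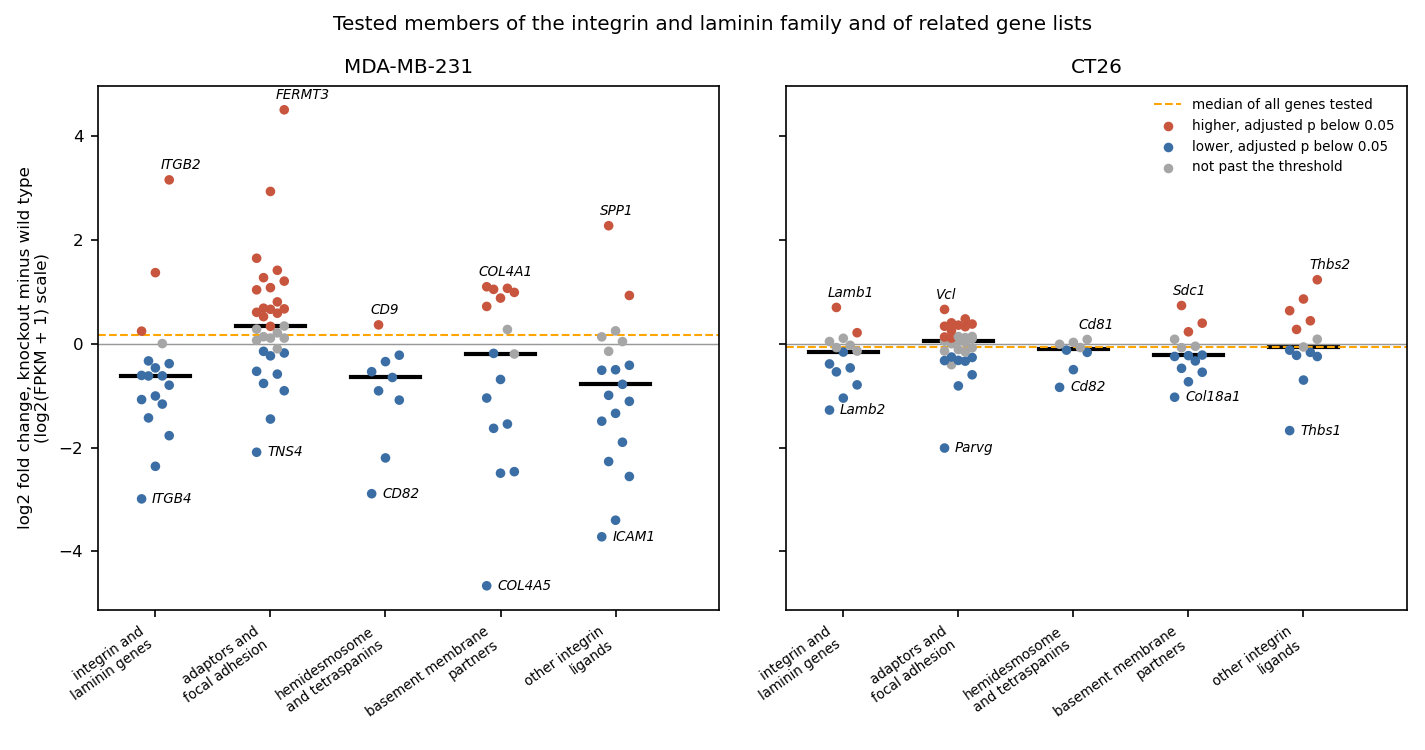
Log2 fold change, knockout minus wild type on the log2(FPKM + 1) scale, of the tested integrin and laminin genes and of 4 lists of related genes, in MDA-MB-231 (left) and CT26 (right). Each point is 1 gene, coloured by its call, black bars are list medians, the dashed line is the median of all genes tested, and the highest and lowest gene of each list are named. In MDA-MB-231 the family median (-0.62) lies below the dashed line (0.18) and that of the adaptors (0.34) above it.

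In CT26 the changes were smaller and less one-sided. Of 14 members tested, 7 fell, 2 rose and 5 did not pass the test. The falls were largest in Lamb2, Itgb7 and Itgb4, and Lamb1 and Itgb1 rose. Of the 11342 genes tested in CT26, 33.5% fell and 22.3% rose, 55.8% in all, and the share called among the members, 64.3%, was not far from that. The groups did not overlap for 6 members lower and 2 higher, against 31.1% and 20.3% of all genes tested. The members' median was -0.15 and that of all genes tested -0.06. After upper-quartile scaling all genes split into 3316 rises and 2840 falls in place of 2534 and 3794, and the members into 2 and 6. Relative to neighbouring genes the splits were 2555 to 2533 and 2 to 5.

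Itgb7 (ENSMUSG00000001281, mm10 chromosome 15, 102215995 to 102231944), a beta chain known from lymphocytes, was the highest beta integrin of wild type CT26. It was at 203, 227, 226 and 216 FPKM in the wild type and at 110, 103, 103 and 103 in the knockout. All knockout libraries were near 48.2% of the wild type mean, with a log2 fold change of -1.05 (SE 0.043, limma adjusted p = 6.31e-07). Neither of its known alpha partners was present at a like level: Itga4 was listed at 0 in every library and Itgae was 0.0438 to 0.107 FPKM in wild type and 0.110 to 0.223 in knockout libraries. The leukocyte and platelet markers summed to 18.8 to 22.4 FPKM in wild type and 51.0 to 57.9 in knockout libraries. Cd14 gave nearly all of that sum, at 17.1 and 53.6 FPKM on average. Ppbp, the only other marker to reach 1 FPKM, averaged 1.72 FPKM in the wild type and 0.536 in the knockout. It passed the filter only through the wild type, so it had to be lower in the knockout. The part of these markers in the Itgb7 difference was not tested. Among the others, Cd3d, Cd3e, Ms4a1, Csf1r, Tyrobp and Laptm5 were at 0. No mouse annotation was used here, so overlap of Itgb7 with other genes was not checked.

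Itgb1 was at 107 to 113 FPKM in wild type and 125 to 128 in knockout libraries, a rise of 0.21 on the log2 scale (SE 0.027, limma adjusted p = 2.16e-04). The median of the 31 genes tested within 10 Mb of it was 0.31, and relative to them Itgb1 stood at -0.06 (limma adjusted p = 0.0925). With Itgb7 lower and Itgb1 higher, Itgb1 went from 29.5% ± 0.956 to 47.2% ± 0.640 of the beta integrin FPKM and Itgb7 from 58.7% ± 1.45 to 39.0% ± 0.798 (SD, n = 4). Itgb4 was at 5.07, 7.11, 7.33 and 8.01 FPKM in the wild type and at 3.23, 4.64, 3.55 and 2.81 in the knockout. Its groups were close but did not overlap, with a log2 fold change of -0.79 (SE 0.15, limma adjusted p = 0.00257). Itgb5 (35.3 to 31.9 FPKM, limma adjusted p = 0.103) and Itgb2 (1.43 to 1.63, limma adjusted p = 0.570) did not pass the test. For Itgb5 the limma adjusted p was 0.0251 without wild type replicate 4.

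Of the 4 alpha integrins tested in CT26, Itga5 and Itgav fell and Itga3 and Itga6 did not pass the test. Itgav, the highest of them, was at 54.2, 51.3, 54.6 and 58.3 FPKM in the wild type and at 48.3, 51.4, 51.4 and 44.4 in the knockout. The groups overlapped, and its log2 fold change of -0.16 (SE 0.058, limma adjusted p = 0.0456) lost its call without any of wild type replicates 1, 3 and 4 or knockout replicates 1 and 4 (limma adjusted p = 0.0785 to 0.108). The call was also lost after upper-quartile scaling (log2 fold change -0.067, limma adjusted p = 0.332), quantile normalization (-0.078, 0.275) and centring on neighbours (-0.081, 0.234), and without a filter or a trend (limma adjusted p = 0.0858 and 0.0578). The authors' deposited table gave it a q-value of 0.433. Itga5 went from 24.5 ± 1.13 to 18.5 ± 1.10 FPKM, a fall of 0.39 on the log2 scale (SE 0.054, limma adjusted p = 3.97e-04). For Itga3 (41.8 and 39.8 FPKM) the 95% confidence interval of the difference was -0.17 to 0.03, and for Itga6 (46.2 and 45.3 FPKM) -0.12 to 0.07. Itgav, Itga6, Itga3 and Itga5 made up 32.4%, 27.5%, 24.9% and 14.6% of the alpha chain FPKM in the wild type. Itga10 averaged 0.261 and 0.761 FPKM without overlap and Itga2b 0.583 and 0.777. Itga1, Itga2, Itga7, Itgad, Itgal, Itgam and Itgax were at most 0.204 FPKM, and Itga8, Itga9 and Itga11 were at 0.

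Laminin beta chains moved in opposite directions in CT26. Lamb1 (mm10 chromosome 12, 31265234 to 31329644) was at 38.0, 40.0, 38.4 and 38.6 FPKM in the wild type and at 67.1, 63.3, 65.7 and 58.8 in the knockout. Lamb2 (mm10 chromosome 9, 108479736 to 108490530) was at 32.3, 37.4, 36.6 and 33.5 FPKM in the wild type and at 17.2, 13.4, 12.5 and 12.7 in the knockout. Neither gene overlapped between groups, and the log2 fold changes were 0.70 (SE 0.045, limma adjusted p = 5.36e-06) and -1.28 (SE 0.099, limma adjusted p = 1.53e-05). The summed FPKM of the laminin beta chains was nearly the same, 74.1 ± 3.32 and 77.7 ± 5.18, while Lamb1 went from 52.4% to 82.0% of it and Lamb2 from 47.2% to 17.9%. The 52 genes tested around Lamb1 had a median of 0.55, and relative to them Lamb1 rose by 0.14 (limma adjusted p = 0.0351). Lamb2 was at -1.14 relative to its own neighbours (limma adjusted p = 4.05e-05).

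Lama5 made up 99.1% of the laminin alpha chain FPKM of wild type CT26. It was at 121, 140, 128 and 126 FPKM in the wild type and at 92.5, 86.5, 95.9 and 97.9 in the knockout. All 4 knockout libraries were below the wild type, with a log2 fold change of -0.46 (SE 0.054, limma adjusted p = 1.40e-04). Lamc1 was at 52.8, 58.4, 59.3 and 46.8 FPKM in the wild type and at 39.7, 34.2, 38.1 and 35.8 in the knockout. It did not overlap between groups either, with a log2 fold change of -0.54 (SE 0.081, limma adjusted p = 6.10e-04), but the 65 genes tested around it had a median of -0.42 and relative to them it stood at -0.07 (limma adjusted p = 0.506). Lama3 averaged 1.15 and 1.22 FPKM and did not pass the test, though relative to neighbours with a median of -0.45 it was higher by 0.46 (limma adjusted p = 0.00105). Lamb3 averaged 0.364 and 0.0890 FPKM, Lamc3 0.173 and 0.123, and Lama1, Lama2 and Lama4 were at or near 0. Itgb3 was at 0 in every library, Itgb6 was at most 0.0903 FPKM, and Itgb8 was 0 in the wild type and 0.145 to 0.221 FPKM in the knockout.

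The partner lists of CT26 are read against 22.3% higher and 33.5% lower among all genes tested, 55.8% in all. Of 31 adaptors tested, 10 rose and 8 fell (median 0.05), so 58.1% were called, near that background, among them rises in Vcl (43.7 to 69.7 FPKM), Actn1 (79.2 to 105) and Sharpin (86.4 to 111) and falls in Fhl2 (83.6 to 47.3), Tns3 (27.9 to 22.0) and Parvg (3.99 to 0.227). Parvg, and Npnt of the ligands, passed the filter only through the group where they are high. Of 14 basement membrane partners, 3 rose and 8 fell (median -0.22). The dystroglycan gene Dag1, a laminin receptor, went from 47.7 ± 1.15 to 32.4 ± 0.974 FPKM, and the collagen chains Col18a1, Col4a1 and Col4a2 fell by 1.03, 0.33 and 0.24 on the log2 scale. Sdc1 and Sdc4, the syndecan co-receptors, rose by 0.74 and 0.23 on the same scale. Of 13 other ligands, 5 rose and 6 fell (median -0.06), and 3 fell after upper-quartile scaling. Spp1, which encodes osteopontin, a ligand of Itgav integrins, went from 925 ± 13.6 to 1685 ± 46.8 FPKM, Thbs2 from 12.3 to 30.2, Col1a2 from 244 to 296 and Npnt from 0.479 to 1.30, while Thbs1 went from 29.5 to 8.61 and Col1a1 from 21.1 to 12.6. Markers of fibroblasts and endothelium, summed, were at 22.1 to 23.7 FPKM in wild type and 72.8 to 91.4 in knockout libraries of CT26, most of it Col3a1, and their part in the matrix genes was not tested. Of 8 hemidesmosome and tetraspanin partners 4 fell and none rose in limma (1 fell and 2 rose after upper-quartile scaling, and 1 to 3 fell with 1 library left out). Cd63 went from 425 ± 15.7 to 301 ± 7.96 FPKM, and the falls of Tspan4, Cd151 and Cd82 were at limma adjusted p = 0.0262, 0.0474 and 0.0485 with overlapping groups.

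The response of the 2 lines differed for most members that could be compared. Over the 8667 genes tested in both lines and paired by symbol, the limma interaction of line and genotype called 72.2%, and it called 11 of the 13 paired members, which is not far from that share. The difference of log2 fold changes, MDA-MB-231 minus CT26, was 3.05 for ITGB2 (SE 0.20, limma adjusted p = 4.96e-10). It was -2.20 for ITGB4, which fell in both lines, and -1.97 for ITGA5, which also fell in both. LAMB1 moved in opposite directions and differed by -1.86 (SE 0.16, limma adjusted p = 1.30e-08), and on the deposited scale so did ITGB1, by -0.68 (SE 0.081, limma adjusted p = 1.05e-06). LAMB2 differed by 1.28, since it fell in CT26 and did not pass the test in MDA-MB-231. ITGA3, ITGA6, ITGAV, ITGB5 and LAMA3 differed by -1.002, -0.58, -0.85, -0.66 and -1.47, each lower in MDA-MB-231.

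LAMA5 and LAMC1 fell in both lines, and their differences of 0.08 (SE 0.11, limma adjusted p = 0.536) and -0.08 (SE 0.12, limma adjusted p = 0.562) did not pass the test. For LAMC1 this held only on the deposited scale: after upper-quartile scaling the difference was -0.38 (limma adjusted p = 0.00896), and that of LAMA5 was -0.23 (limma adjusted p = 0.129). The falls themselves have limits. Relative to its neighbours, Lamc1 in CT26 stood at -0.07 (limma adjusted p = 0.506). In MDA-MB-231 the LAMA5 groups overlapped, with a q-value of 0.16 in the authors' deposited table. ITGB7 was below the filter in MDA-MB-231, and ITGA1, ITGA2, ITGA10, ITGAE and LAMB3 were below it in CT26, so their responses were not compared.

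**Figure D4:**
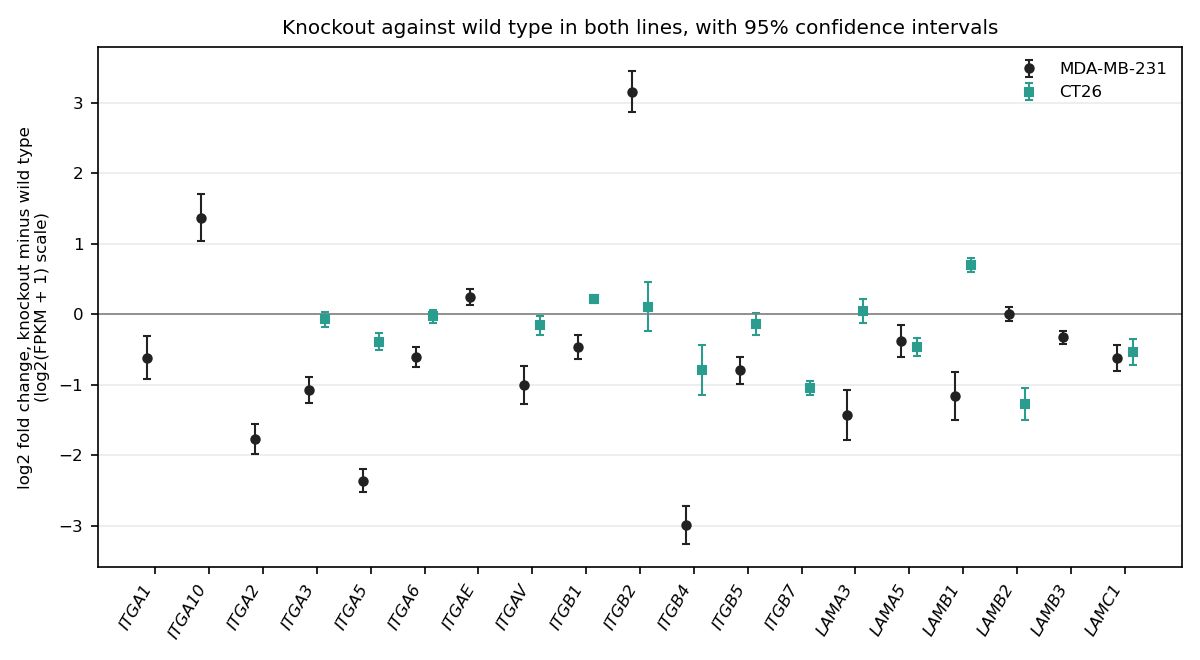
Log2 fold change, knockout minus wild type on the log2(FPKM + 1) scale, of every member tested in MDA-MB-231 (black circles) or CT26 (green squares, under the human symbol). Error bars are 95% confidence intervals from limma with 4 libraries a group. ITGB4 stands at -2.99 in MDA-MB-231 and -0.79 in CT26, and LAMB1 at -1.16 and 0.70.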

How the data were processed

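The deposited tables held 1 value in FPKM per gene and library for each line, with the authors' p-value and q-value. Per the submitters' processing notes, bcl2fastq 2.18, STAR 2.5.4a, Cufflinks 2.2.1 and Cuffdiff were used, with builds hg38 and mm10. Annotation, strand use and the options of Cuffdiff were not given in the sources used here. FPKM holds no counts, so depth is known only relative to wild type replicate 1 of each line, from the steps between low values, and the precision of low values is worse in the shallower libraries. Since the 2 tables were normalized apart, levels were never compared between lines.

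Values were analysed as log2(FPKM + 1) for genes with at least 1 FPKM in at least 4 of 8 libraries. Knockout was compared with wild type by limma 3.58.1 (R 4.3.3) with a mean-variance trend, in two-sided tests adjusted by Benjamini-Hochberg over the whole table of tested genes. The difference between lines was the interaction term over all 16 libraries. CD274 and Cd274 were also put through an exact permutation test of 70 assignments. The fit was also run on simulated data in which far fewer genes changed than were called here. That run does not show how the fit behaves with so many changes. Shares, depths, motifs and plots were computed in Python 3.11.15 with pandas 2.3.3, numpy 2.4.6, scipy 1.17.1 and matplotlib 3.10.9. Human coordinates are those of GENCODE 29; mouse coordinates are the deposited loci. No 2 libraries of a line had more than 1.19% identical values.

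The members and lists were chosen with earlier results of these data known. Some genes are not reported here and are left out of the members, lists and counts. The other members are all accounted for. Members were given library by library where they were called, averaged 5 FPKM or more in the higher group and had an absolute log2 fold change of at least 0.5, or were the highest of their class; others are given by means or ranges. Of each partner list up to 6 genes per line with the smallest adjusted p were named, and CD9, named as the only rise of its list, was chosen after its value was seen, as were genes named because they passed the filter through 1 group only, and marker genes given with values. Alternatives were other pseudocounts, filters, scalings, centring on genes within 10 Mb either side, limma without a trend, a replicate block and leaving out each library.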

Additional observations from a re-analysis of the deposited data

Results flagged for a closer look

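In 3 members of CT26, 1 knockout library stood apart from the other 3 of its group by Dixon's criterion, which chance meets in about 1 of 20 groups. Both groups of all 18 members tested in MDA-MB-231 and all 14 in CT26 were screened, so chance alone would give a few such flags. Knockout replicate 1 read 2.37 FPKM for Itgb2, against 1.36 to 1.42 in the others, and 110 FPKM for Itgb7, against 103 in each of the others. Knockout replicate 4 read 34.5 FPKM for Itgb5, against 30.9 to 31.3. Replicate 1 was also the deepest library of its line, at 2.49 times wild type replicate 1, and whether depth plays a part was not tested.

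For 11 of the 13 members compared, the response to the knockout differed between the lines by the limma interaction term, which called 72.2% of all 8667 genes compared. The difference of log2 fold changes, MDA-MB-231 minus CT26, was -2.20 for ITGB4, -1.97 for ITGA5, -1.86 for LAMB1, -1.47 for LAMA3, -1.002 for ITGA3, -0.85 for ITGAV, -0.68 for ITGB1, -0.66 for ITGB5 and -0.58 for ITGA6. It was 1.28 for LAMB2 and 3.05 for ITGB2.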

How the results depend on the processing

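The counts of changed members held within 1.5 times under every alternative but this: without a filter, 7 members rose in MDA-MB-231 (LAMA1, LAMA2, LAMA4 and ITGB3 were added, all low) and 4 in CT26 (Itga10 and Itgb8 were added). CD274 passed the test after upper-quartile scaling (-0.40), quantile normalization (-0.32) and centring on neighbours (-0.50). Direction turned for the following values. In the main test the rise of Itgb1 was called and the others were not. LAMB2 was -0.21 after upper-quartile scaling, -0.25 after quantile normalization, -0.42 when centred on neighbours, and -0.026 to 0.027 with 1 library left out. In the first 3 of these settings LAMB2 was called lower (limma adjusted p = 0.00316, 0.00378 and 5.57e-05). Under the same 3 settings Itga3 was 0.019, 0.019 and 0.047 and Itga6 0.063, 0.049 and 0.016, and with 1 library left out Itga6 was -0.049 to 0.0029 and Itgb2 -0.018 to 0.19. Lama3 was -0.036 after quantile normalization. Centred on neighbours, Itgb1 was -0.064. The LAMA5 difference between lines was -0.23 and -0.26 after upper-quartile scaling and quantile normalization. Among the partner lists, the hemidesmosome and tetraspanin genes of CT26 gave 1 to 4 falls and 0 to 3 rises over all settings, and the ligands 3 falls after upper-quartile scaling or quantile normalization, against 6. The median log2 fold change of the members in MDA-MB-231 was -0.19 without a filter and -0.92 when centred on neighbours. In CT26 the members' median, -0.149 in the main test, was -0.017 without a filter and -0.058 after upper-quartile scaling. It was -0.066 after quantile normalization and -0.067 when centred on neighbours. The median of all CT26 genes tested was 0.0019, 0.025, -0.017 and 0.0038 in these 4 settings. The cause of these changes was not tested.

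The replicate block left the MDA-MB-231 members at 3 higher and 14 lower and gave 2 higher and 6 lower in CT26, where Itgav lost its call (limma adjusted p = 0.111). The deviations of same-numbered wild type and knockout libraries were correlated at -0.04 to 0.0044 in MDA-MB-231. In CT26 the correlations were small but all positive, 0.03 to 0.08, and each library correlated best with its own number. The labels do not say whether replicate numbers pair the libraries. Depth is known only in relative terms, so no detection limit can be given for members below 1 FPKM.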
